A study of Mus musculus with 16 samples.

Results

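The transcription factors of the enteric nervous system described here were 8 genes of the 56748 in the deposited table, taken by name in every library: Phox2a, Tlx2, Hand2, Insm1, Tbx3, Tbx2, Ebf1 and Meis1. All 8 were found and all 8 passed the filter on low counts in each comparison. The enteric nervous system arises from vagal and sacral neural crest cells that invade the gut and form the ganglia of the bowel wall. A cascade of DNA-binding proteins, with SOX10 early and HAND2, PHOX2A and TLX2 in neuronal lineages, directs their survival and differentiation into neurons. Endothelin 3 signals through the endothelin B receptor on these migrating cells, and its loss leaves the distal colon without ganglia, the defect of Hirschsprung disease (HSCR).

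Bulk RNA-seq was performed on the longitudinal muscle and myenteric plexus (LMMP), peeled from the colon of HSCR mice and WT littermates. HSCR mice were homozygous for Ednrb tm1Ywa, which disrupts the endothelin B receptor in every cell, and WT mice carried Ednrb +/+; both were on a hybrid C57BL6/J-129Sv background and were 2 to 4 weeks old, of both sexes. There were 4 libraries in each of 4 groups, WT proximal, HSCR proximal, WT distal and HSCR distal, and no treatment was given. The proximal segment of HSCR mice was the ganglionic colon, recognised at dissection by its distention. The study also checked it by immunostaining for Tuj1, a pan-neuronal marker. The labels do not say which libraries came from the same mouse, so p-values measure the spread between these libraries. For the 8 libraries whose titles name the distal colon, the tissue entry of the labels reads proximal colon; the titles were followed here.

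Totals ranged from 21384372 to 45831881 counts a library, of which 4.32% to 49.8% were mitochondrial. Levels are given as CPM, read counts as a share of each library's total, scaled by the trimmed mean of M-values (TMM). Ednrb, the disrupted gene, did not separate HSCR from WT libraries in either segment. It was read at 67.7, 33.9, 64.2 and 53.0 CPM in WT proximal libraries 1 to 4, at 7.84, 12.6, 36.3 and 35.8 CPM in HSCR proximal libraries, at 12.2, 16.1, 28.3 and 40.2 CPM in WT distal libraries, and at 97.0, 5.54, 5.82 and 9.56 CPM in HSCR distal libraries. The library labelled HSCR distal 1 thus held the highest Ednrb level of all 16. Hoxd13, a posterior Hox gene, lay between 112 and 201 CPM in WT distal libraries and between 0.904 and 23.9 CPM in WT proximal libraries, yet was at 125 CPM in the library labelled HSCR proximal 1 and at 0.629 CPM in the library labelled HSCR distal 1. HSCR distal library 4, in which Phox2a and Tlx2 were at 0, held Hoxd13 at 14.1 CPM, also within the WT proximal range. No library was moved to another group, and the main edgeR comparisons that use these 3 libraries are given with and without them. Alternative fits with added terms or factors, and DESeq2, kept all libraries of a comparison.

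The promoter windows of the gene with the widest spread over libraries and of the gene with the highest level are shown because they differ in composition. Each is the 250 bases before the annotated start on GRCm39, matched from RefSeq's promoter table (GRCm38.p6 entries), which held 4 of the 8 genes; capitals mark the E-box CANNTG, the letters bound by basic helix-loop-helix proteins. Phox2a is transcribed from chromosome 7, 101467520 to 101471933, on the plus strand, and Hand2 from chromosome 8, 57774018 to 57777668, on the plus strand.
Phox2a (chr7:101467270-101467519, plus strand): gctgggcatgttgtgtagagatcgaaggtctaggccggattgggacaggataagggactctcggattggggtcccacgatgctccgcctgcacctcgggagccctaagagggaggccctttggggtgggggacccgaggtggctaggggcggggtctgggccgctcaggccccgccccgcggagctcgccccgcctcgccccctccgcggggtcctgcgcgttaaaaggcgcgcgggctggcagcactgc
Hand2 (chr8:57773768-57774017, plus strand): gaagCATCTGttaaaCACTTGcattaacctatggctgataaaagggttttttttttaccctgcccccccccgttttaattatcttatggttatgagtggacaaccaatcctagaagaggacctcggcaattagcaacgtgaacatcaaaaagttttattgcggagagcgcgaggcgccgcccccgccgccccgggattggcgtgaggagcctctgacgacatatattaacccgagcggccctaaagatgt
The Phox2a window was 70.4% G and C and held neither CANNTG nor TAAT, the core letters of many homeodomain sites. The Hand2 window was 49.2% G and C, with 2 CANNTG and 5 TAAT matches on both strands together; overlapping matches were counted. Among 32851 promoter windows of the same table, the median was 52.4% G and C, 66.2% held CANNTG and 54.9% held TAAT, so both motifs are common letters and a match is a description, not a bound site. TGACAG and GGTGTG, letters of MEIS and T-box sites found in 15.9% and 16.3% of windows, were in neither.

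Levels of different genes were compared per transcript length, as the deposited FPKM. Hand2, a basic helix-loop-helix factor needed for enteric neuron differentiation and also expressed in gut mesenchyme, had the highest level of the 8 genes in all 4 groups. Its mean was 67.9 ± 22.5 FPKM in WT proximal colon (SD, n = 4), 31.3 ± 18.6 in HSCR proximal, 48.0 ± 20.2 in WT distal and 37.3 ± 12.6 in HSCR distal colon, and in every group it exceeded the next gene by mean in 4 of 4 libraries. Tlx2 and Phox2a had the next highest means in both WT groups. Tlx2 was at 19.3 ± 11.5 FPKM and Phox2a at 12.4 ± 10.6 FPKM in WT proximal colon, with Tlx2 above Phox2a in 4 of 4 libraries. In WT distal colon Tlx2 was at 8.17 ± 7.59, Phox2a at 6.59 ± 7.25 and Meis1 at 6.52 ± 2.24 FPKM, and Tlx2 exceeded Meis1 in 2 of 4 libraries and Phox2a exceeded it in 1 of 4, so these 3 did not separate beyond their spread. In both HSCR groups Meis1 had the second highest mean, at 6.45 ± 3.24 FPKM in proximal and 8.68 ± 2.22 FPKM in distal colon. Meis1 exceeded the third gene, Tbx3, in 4 of 4 HSCR distal libraries but in 2 of 4 HSCR proximal libraries. It stayed second without HSCR distal library 1 and without HSCR distal libraries 1 and 4, while without HSCR proximal library 1 the second mean was that of Tbx3, at 7.49 ± 1.78 FPKM (n = 3), which Hand2 exceeded in 2 of those 3 libraries. Phox2a exceeded Tbx3, the next gene down, in 2 of 4 WT proximal libraries, and Insm1 exceeded Ebf1, the lowest gene of that group at 1.40 ± 0.92 FPKM, in 2 of 4; those neighbours did not separate beyond their spread.

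**Figure D1:**
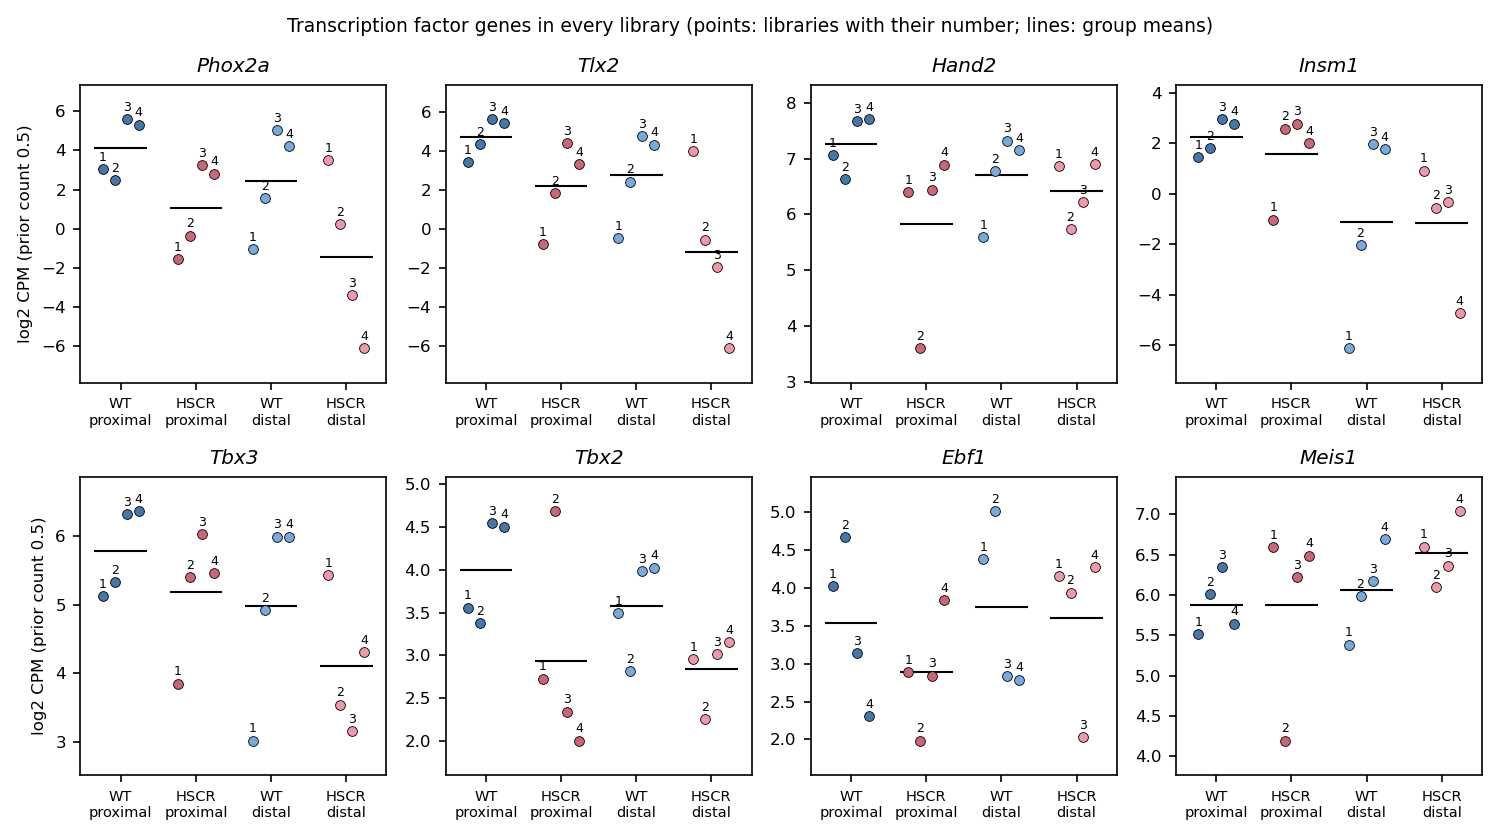
Level of the 8 genes in each library as log2 CPM (vertical axis, prior count 0.5), with 4 libraries in each of the 4 groups; numbers are library numbers and lines are group means. Phox2a and Tlx2 span the widest range, with HSCR distal libraries 2 to 4 low and the library labelled HSCR distal 1 near WT; points at the bottom of the Phox2a, Tlx2 and Insm1 panels are libraries with 0 counts.

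Phox2a encodes a paired-like homeodomain protein of autonomic and enteric neurons. Its level was 8.21, 5.596, 48.9 and 39.8 CPM in WT proximal libraries 1 to 4 and 0.325, 0.767, 9.46 and 7.01 CPM in HSCR proximal libraries. The lower pair of WT values fell between the HSCR values, so the groups overlapped, although the mean was 25.6 ± 21.95 CPM in WT and 4.39 ± 4.55 CPM in HSCR mice (SD, n = 4). In distal colon the WT libraries held 0.467, 2.97, 32.6 and 18.7 CPM and the HSCR libraries 11.4, 1.15, 0.081 and 0 CPM. A level of 3 counts, the limit that a count of 0 allows in HSCR distal library 4, would be 0.0691 CPM; intervals and limits of this kind cover counting error only. HSCR distal libraries 2 to 4 were below 3 of the 4 WT distal libraries, while the library labelled HSCR distal 1 was above WT distal libraries 1 and 2.

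Tlx2 encodes a homeodomain protein of neural-crest-derived enteric neurons, whose loss in mice disturbs the myenteric plexus. WT proximal libraries held 10.6, 20.3, 49.9 and 42.6 CPM and HSCR proximal libraries 0.574, 3.54, 21.3 and 10.1 CPM. In distal colon it was at 0.701, 5.33, 26.8 and 20.0 CPM in WT libraries and at 15.7, 0.669, 0.243 and 0 CPM in HSCR libraries. The groups overlapped in both segments, in distal colon only through the library labelled HSCR distal 1: without it, all 3 HSCR values lay below all 4 WT values.

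Hand2 was at 134, 99.5, 203 and 209 CPM in WT proximal libraries and at 84.4, 12.1, 87.0 and 119 CPM in HSCR proximal libraries. HSCR libraries 1 to 3 were below every WT library and library 4 was above WT library 2. In distal colon Hand2 was at 48.1, 109, 160 and 142 CPM in WT and 116, 53.2, 74.4 and 120 CPM in HSCR libraries, with all HSCR values inside the range of the WT values. Unlike Phox2a, Hand2 stayed above 50 CPM in HSCR distal libraries 3 and 4, where Phox2a was at or near 0.

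Insm1 encodes a zinc finger protein of neuroendocrine and neuronal precursors, including those of gut endocrine cells. It was low throughout, at 2.71, 3.50, 7.75 and 6.82 CPM in WT proximal, 0.475, 5.95, 6.78 and 3.97 CPM in HSCR proximal, 0, 0.231, 3.85 and 3.40 CPM in WT distal and 1.86, 0.669, 0.782 and 0.023 CPM in HSCR distal libraries. WT and HSCR proximal libraries overlapped except for HSCR library 1, and WT distal libraries 1 and 2 were as low as the HSCR distal libraries. In HSCR proximal library 2, where Insm1 was second highest of its group, the 13 epithelial marker genes summed to 17624 CPM against 46.8 to 5865 CPM in the other 15 libraries. The 9 enteroendocrine markers there summed to 325.5 CPM, with none at 0, against 0.3 to 78.6 CPM elsewhere, and the 10 smooth muscle markers summed to 4690 CPM against 25139 CPM or more; their part in the Insm1 level was not tested.

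Tbx3 and Tbx2 encode closely related T-box repressors of organ patterning, and Tbx3 is also expressed in enteric neurons. Tbx3 was at 34.95, 40.2, 79.8 and 82.4 CPM in WT proximal libraries, 14.4, 42.3, 65.1 and 44.2 CPM in HSCR proximal libraries, 8.11, 30.2, 63.7 and 63.7 CPM in WT distal libraries and 43.2, 11.7, 8.92 and 19.9 CPM in HSCR distal libraries. Its lowest level of all was in WT distal library 1, so the distal groups overlapped. Tbx2 was at 11.8, 10.4, 23.3 and 22.6 CPM in WT proximal, 6.62, 25.6, 5.07 and 4.01 CPM in HSCR proximal, 11.3, 7.03, 15.8 and 16.3 CPM in WT distal and 7.75, 4.76, 8.06 and 8.87 CPM in HSCR distal libraries. Of the 4 HSCR proximal libraries, 3 lay below every WT proximal library, and the other, the epithelium-rich library 2, was the highest of all 16.

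Ebf1 encodes an early B-cell factor, known from lymphocytes, adipocytes and other mesenchymal cells as well as neurons. It was at 16.2, 25.4, 8.80 and 4.92 CPM in WT proximal, 7.37, 3.94, 7.14 and 14.3 CPM in HSCR proximal, 20.8, 32.2, 7.11 and 6.90 CPM in WT distal and 17.8, 15.3, 4.07 and 19.3 CPM in HSCR distal libraries. In both WT groups libraries 1 and 2 were above libraries 3 and 4, the opposite of the order of the other 6 genes described above. Meis1 encodes a TALE homeodomain protein that partners HOX proteins in many tissues. It was at 45.6, 64.5, 81.2 and 50.01 CPM in WT proximal, 96.6, 18.3, 74.8 and 89.8 CPM in HSCR proximal, 41.8, 63.3, 72.0 and 103 CPM in WT distal and 96.9, 68.3, 82.2 and 132 CPM in HSCR distal libraries. Meis1 was the only member whose highest level of all 16 was in HSCR distal library 4, where Phox2a and Tlx2 were at 0.

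The first comparison asked how these genes differed between HSCR and WT mice in the proximal, ganglionic colon. In the edgeR quasi-likelihood fit, with p-values adjusted by Benjamini-Hochberg over all genes tested, 0 of the 8 genes passed an adjusted p of 0.05, and neither did any of the 16664 genes tested (0%). Fitted values were below 0 for 7 of the 8, against 46.8% of all genes tested and 52.3% of the 1097 tested genes with a transcription factor family in the deposited table. The median of the 8 was -0.77 on the log2 scale, against 0.04 for all genes. At an unadjusted p of 0.05 only Phox2a was past the threshold, against 6.62% of all genes. Its fitted log2 fold change was -2.57 (SE 1.13, 95% confidence interval -5.12 to -0.02, edgeR unadjusted p = 0.0483, adjusted p = 0.747).

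The other 7 were further from the threshold. Tlx2 had a fitted log2 fold change of -1.83 (edgeR adjusted p = 0.753) and Hand2 one of -1.12 (edgeR adjusted p = 0.760). Values of Tbx2, Ebf1, Tbx3 and Insm1 were -0.77, -0.76, -0.55 and -0.32, and that of Meis1 was 0.19 with an interval of -0.89 to 1.26. None of the 8 had 4 HSCR proximal libraries entirely below or above the 4 WT proximal libraries, a separation met by 4.86% of all genes. In the exact two-sided permutation test on log2 CPM, whose smallest p for 4 against 4 is 0.0286, Hand2 came nearest at p = 0.0571 and Phox2a gave p = 0.143. Without the library labelled HSCR proximal 1, the Phox2a value was -2.16 (unadjusted p = 0.0695), the Tlx2 value -1.42 and the Insm1 value 0.08; 0 of the 8 separated without overlap then (4.12% of genes lower) or with WT proximal library 1 also left out (8.47%). Without HSCR proximal library 2, the Tbx2 value was -1.72 (edgeR unadjusted p = 0.0038, adjusted p = 0.463) and the Hand2 value -0.76 (unadjusted p = 0.0440), while Phox2a, at -2.22 (unadjusted p = 0.0836), was no longer past the unadjusted threshold; 2 of the 8 were past it then, against 7.54% of all genes.

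The calls depended on the test. DESeq2 called 190 of all genes (1.14%) and 0 of the 8, and gave Phox2a an adjusted p of 0.255. When 4 factors of unwanted variation were estimated from the residuals (RUVr) and the edgeR likelihood ratio test was applied, 20.7% of all genes were called and 4 of the 8 were: Phox2a at -3.07, Tlx2 at -2.37, Hand2 at -1.43 and Tbx2 at -1.17 on the log2 scale. Their adjusted p-values were 3.4e-11, 4.7e-06, 0.00023 and 0.0040 in that edgeR test. All 4 values were below 0 as without the factors, but both fits used the same counts. The factors came from the residuals of the same libraries that were then tested, which lowers the spread the test sees. These p-values can therefore be too small. Tbx3, Insm1, Ebf1 and Meis1 were not called with or without the factors.

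**Figure D2:**
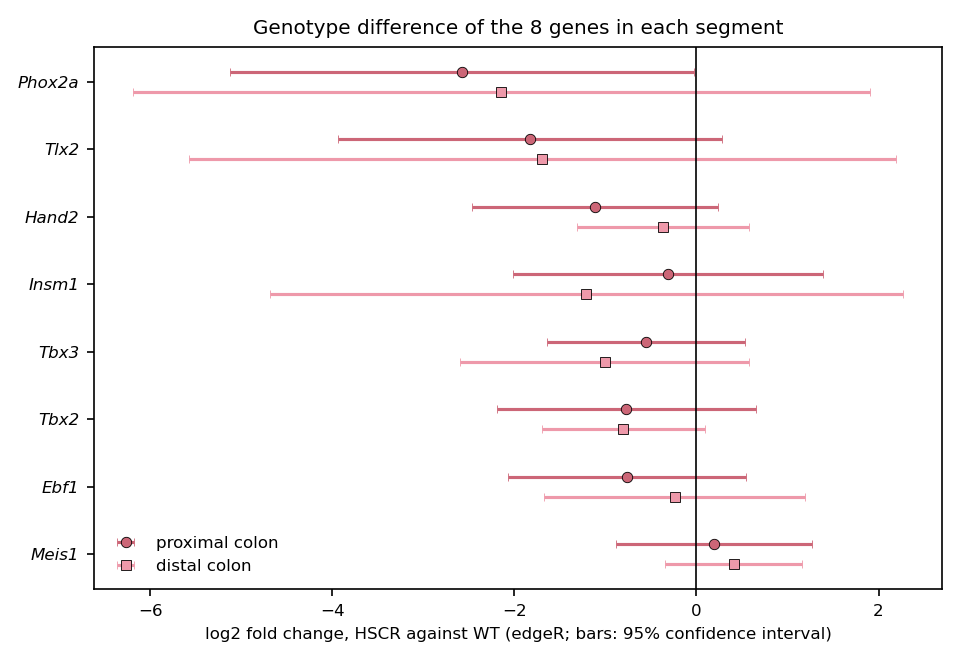
Fitted log2 fold change of HSCR against WT for the 8 genes (horizontal axis, edgeR quasi-likelihood fit; bars are 95% confidence intervals) in proximal (circles) and distal colon (squares), 4 libraries a group. The value is below 0 for 7 of the 8 genes in each segment and above 0 for Meis1; only the proximal Phox2a interval ends short of 0.

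The second comparison asked the same of the distal colon, which the study describes as aganglionic in HSCR mice, with sparse, small ganglia in its sections. No gene of the 17059 tested (0%) and 0 of the 8 passed an adjusted p of 0.05 by edgeR's quasi-likelihood test, and 0 of the 8 passed an unadjusted p of 0.05, against 2.64% of all genes. Values were below 0 for 7 of the 8, against 46.1% of all genes, with a median of -0.91 against 0.04. Phox2a had a fitted log2 fold change of -2.14 (SE 1.79, interval -6.19 to 1.91) and Tlx2 one of -1.69 (SE 1.72, interval -5.58 to 2.19). Values were -1.21 for Insm1, -1.01 for Tbx3, -0.80 for Tbx2, -0.37 for Hand2 and -0.24 for Ebf1, and 0.41 for Meis1. The narrowest of the lower values was that of Tbx2, with an SE of 0.395 and an unadjusted p of 0.0726; DESeq2 gave it an unadjusted p of 0.0405 and an adjusted p of 0.966, and called 22 of all genes (0.129%). None of the 8 separated the groups without overlap, against 1.82% of all genes.

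The library labelled HSCR distal 1 decided the size of several distal values. Without it, the log2 fold change was -5.51 for Tlx2 (edgeR unadjusted p = 0.0119), -5.13 for Phox2a (unadjusted p = 0.0314) and -1.66 for Tbx3 (unadjusted p = 0.0469), so 3 of the 8 passed the unadjusted threshold against 5.24% of all genes, and none passed the adjusted one (lowest adjusted p of the 8 = 0.813). All 3 remaining HSCR libraries were then below all 4 WT libraries for Tlx2 (exact two-sided permutation p = 0.0571), against 3.28% of genes lower without overlap. With WT distal library 1 also left out, a choice made after seeing the data, Phox2a, Tlx2 and Tbx3 were lower without overlap, 3 of the 8 against 7.37% of genes, at log2 fold changes of -5.56, -5.93 and -2.03. The exact p for those 3 genes was 0.1, the smallest for 3 libraries against 3. Without HSCR distal libraries 1 and 4, also chosen after seeing the data, the values were -4.92 for Tlx2 (edgeR unadjusted p = 0.0185), -4.54 for Phox2a (unadjusted p = 0.0560) and -2.06 for Tbx3 (unadjusted p = 0.0465), with 0 at the adjusted threshold, and Tlx2 alone was lower without overlap (5.65% of genes). Without HSCR distal library 4 alone, the Phox2a value was -1.74 and the Tlx2 value -1.28. Under RUVr with the likelihood ratio test, 8.52% of all genes and 2 of the 8 were called, Phox2a at -3.82 and Tlx2 at -3.54 (edgeR adjusted p = 2.3e-07 and 9.2e-06). These p-values have the limit given for proximal colon, and HSCR distal libraries 1 and 4 were kept in that fit.

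All 16 libraries carry 1 batch label, but their names have 3 styles. Libraries numbered 1 and 2 share one style in every group. Of those numbered 3 and 4, all distal libraries and HSCR proximal library 3 have LC names, while both WT proximal libraries and HSCR proximal library 4 have CM names. In distal colon, within the LC style, Phox2a, Tlx2, Hand2, Insm1, Tbx3 and Tbx2 were lower in HSCR than in WT mice without overlap (19.6% of all genes), with HSCR distal library 4 among the 2 HSCR libraries. In proximal colon, the same 6 genes were lower among libraries 3 and 4 (23.7%), a set of mixed styles, and in the 1 HSCR library with a CM name against the 2 WT libraries with CM names (37.7%). Ebf1 and Meis1 overlapped among libraries 3 and 4 in both segments. Among libraries 1 and 2, the genes lower without overlap in proximal colon were Phox2a, Tlx2, Hand2 and Ebf1 (13.9% of all genes), and in distal colon only Ebf1 (15.4%), with Insm1 and Meis1 higher (14.2%). These sets include the doubted libraries labelled HSCR proximal 1 and HSCR distal 1. With 2 libraries or fewer a group no test was made.

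The log2 difference of Phox2a was -3.72 among proximal libraries 1 and 2 and -2.44 among proximal libraries 3 and 4. With the 3 name styles as terms in the edgeR fit, chosen after seeing the data, the proximal value was -3.25 for Phox2a (SE 0.496, unadjusted p = 0.000276, adjusted p = 0.260) and -2.65 for Tlx2 (unadjusted p = 0.0048, adjusted p = 0.340); HSCR proximal library 3, alone in its style there, adds nothing to the difference in that fit. With a single term that set libraries 1 and 2 against 3 and 4, the Phox2a value was -3.05 (SE 0.437, unadjusted p = 0.0001, adjusted p = 0.0962), and 0 of the 8 were called in either fit.

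The third comparison set distal against proximal colon in WT mice. By edgeR's quasi-likelihood test 0 of the 8 passed an adjusted or an unadjusted p of 0.05 (0.0181% and 5.23% of the 16566 genes tested), and DESeq2 called 0 of the 8. Values were below 0 for 6 of the 8, against 48.3% of all genes, from -1.45 for Insm1 and -1.20 for Tlx2 to -0.41 for Tbx2, and were 0.31 for Ebf1 and 0.24 for Meis1. None separated the segments without overlap (4.36% of genes). Among libraries 1 and 2, Phox2a, Tlx2, Insm1 and Tbx3 were lower in distal than in proximal colon without overlap (19.7% of genes). Among WT libraries 3 and 4 the segment and the name style cannot be told apart, since those of proximal colon have CM names and those of distal colon LC names. This comparison shares its WT libraries with both genotype comparisons.

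In HSCR mice, distal against proximal colon, 0 of the 8 passed an adjusted or an unadjusted p of 0.05 by edgeR (0% and 1.49% of 17086 genes). DESeq2 called 0 of them but gave no p-value for Tbx2, and gave Insm1 an unadjusted p of 0.0256 (adjusted p = 1). Insm1 had the lowest edgeR value, -2.36 (SE 1.13, unadjusted p = 0.0662), followed by Tlx2 at -1.10, Tbx3 at -0.99, Phox2a at -0.49 and Tbx2 at -0.46. Hand2, Ebf1 and Meis1 were at 0.23, 0.76 and 0.41, so that 5 of the 8 were below 0, against 52.9% of genes. None separated the segments (1.32% of genes). Among libraries 1 and 2, which include both doubted libraries numbered 1, none was lower (11.1%) and Phox2a and Ebf1 were higher (9.7%). Without both HSCR libraries numbered 1, Tlx2 (-5.30), Insm1 (-3.51) and Tbx3 (-1.92) had lower distal levels without overlap, 3 of the 8 against 5.67% of genes, with an exact p of 0.1 each, the smallest for 3 against 3, and edgeR adjusted p-values of 0.920. With HSCR distal library 4 also left out, the same 3 genes had lower distal levels without overlap (8.14% of genes), at -4.70, -2.95 and -2.31.

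The difference of the genotype differences between the segments was then fitted over all 16 libraries. None of the 8 passed an adjusted or an unadjusted p of 0.05 by edgeR (0% and 1.44% of 18619 genes), and DESeq2 called 0 of the 8. Values ranged from -0.89 for Insm1 to 0.76 for Hand2. The interval was -4.15 to 5.01 for Phox2a and -4.16 to 4.42 for Tlx2, wide enough that no difference between the segments was detectable for these genes, and -1.04 to 1.49 for Meis1. Without both HSCR libraries numbered 1 the sign turned for Phox2a, to -2.97 (unadjusted p = 0.167), and for Tlx2, to -4.11 (edgeR unadjusted p = 0.0274, adjusted p = 1.00). With HSCR distal library 4 also left out, the values were -2.37 and -3.50 (edgeR unadjusted p = 0.259 and 0.0444).

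The 8 genes were next set beside the neuronal content of each library, read from 16 neuronal marker genes (Elavl3, Elavl4, Uchl1, Tubb3, Snap25, Ret, Nos1, Vip and others). Their summed level was 744.9 to 4162 CPM in WT proximal, 118 to 3042 CPM in HSCR proximal, 162 to 2703 CPM in WT distal and 32.8 to 1646 CPM in HSCR distal libraries. The 6 lowest libraries were HSCR distal 4, HSCR distal 3, the library labelled HSCR proximal 1, HSCR proximal 2, HSCR distal 2 and WT distal 1. These same 6 were the 6 lowest for Phox2a and the 6 lowest for Tlx2. Of the 6 lowest libraries of Hand2, Tbx3 and Insm1, 5 were among them, and of those of Tbx2, Ebf1 and Meis1, 2 were. In these bulk samples, fewer neurons and less RNA per neuron cannot be told apart, and the part of neuronal content in the values of the 8 genes was not tested.

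Of the 16 neuronal markers, between 0 and 3 were at 0 counts in a library. The marker most often at 0 was Chat, choline acetyltransferase, in 7 libraries, all 4 of the HSCR distal group among them; Elavl3 was also at 0 in HSCR proximal library 2 and WT distal library 1. Fitted values of the neuronal list were below 0 for 15 of 16 genes in proximal colon (median -1.88), against 46.8% of all genes. In distal colon they were below 0 for 13 of 15 tested (median -1.73), against 46.1%. By edgeR 0 of them passed an adjusted p of 0.05 in either segment. At an unadjusted p of 0.05, 7 were past in proximal and 0 in distal colon, against 6.62% and 2.64% of all genes. All 13 epithelial markers had values above 0 in both segments (medians 2.76 and 1.10). Of these, 3 were past an unadjusted p of 0.05 in proximal and 1 in distal colon, against the same 6.62% and 2.64%, and 0 past the adjusted one. The distal neuronal values rested on the library labelled HSCR distal 1: without it all 16 were below 0 (median -4.49) and 15 were lower at an unadjusted p of 0.05, against 4.13% of all genes, and without HSCR distal libraries 1 and 4 the median was -4.21 and 9 were lower (2.8%), with 0 past the adjusted p in both. In proximal colon without library 1, 15 of 16 neuronal values were below 0 (median -1.49) and 3 were lower at the unadjusted p (2.92%). Without HSCR proximal library 2, the median of the epithelial markers was 0.83, with 12 of 13 above 0 and 0 past the unadjusted p (7.54%).

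**Figure D3:**
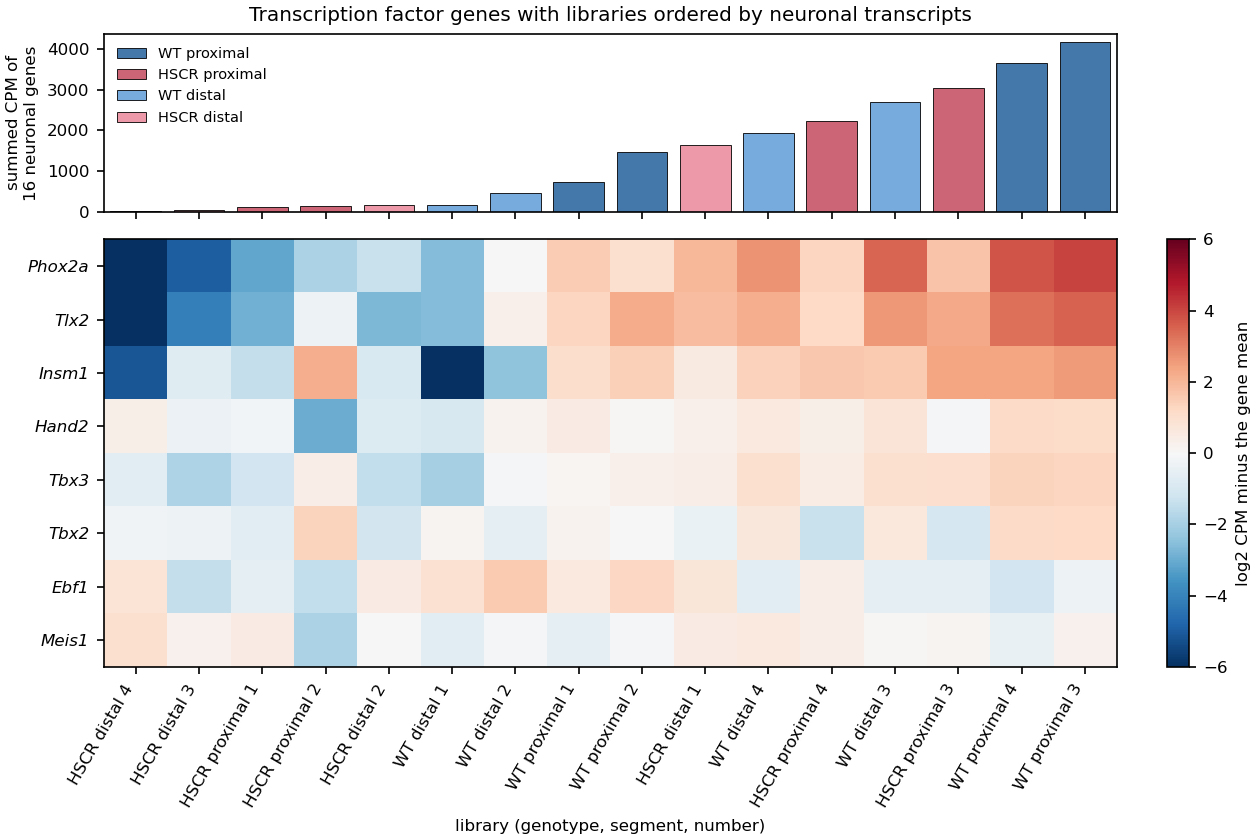
Top, summed CPM of 16 neuronal marker genes in each library, in rising order, coloured by group; bottom, log2 CPM of each gene minus its mean over the 16 libraries (blue below, red above, scale cut at 6). Phox2a and Tlx2 turn from blue to red along the order, with the 6 libraries from HSCR distal 4 to WT distal 1 lowest for both, while Ebf1 and Meis1 show no such change.

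Likeness of pattern was measured as the root mean square difference in log2 CPM, each gene centred on its own mean over the 16 libraries, among 15379 protein-coding genes. The gene most like Phox2a was Tlx2, at 0.76, followed by Syt5, a synaptotagmin, at 0.84 and Snap91, a clathrin adaptor of synapses, at 0.84. For Tlx2 the order was Celf6, an RNA-binding protein, at 0.70, then Phox2a at 0.76 and Elavl4, a neuronal RNA-binding protein, at 0.80. The next member after Tlx2 in the list of Phox2a was Insm1, at rank 328, then Tbx3 at rank 531 and Hand2 at rank 1271. Each of these measures rests on 16 libraries that share depth and makeup across genes.

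The remaining genes had other neighbours. Those of Hand2 were Tgfb2, Azin2 and Taf9b, from 0.35 to 0.39, and its nearest member was Meis1, at rank 640. Those of Tbx3 were Rundc3a, Snrpn and Nyap1 (0.51 to 0.55), those of Tbx2 were Aacs, Bcar3 and Hsph1 (0.48 to 0.54), and those of Insm1 were Sstr2, a somatostatin receptor, Drc3 and C2cd4c (1.14 to 1.41). Ebf1 was nearest to Dpt, the fibroblast matrix protein dermatopontin, Tgfb3 and Maml2, all at 0.46, and Meis1 to Ssh1, Dact3 and Dip2c (0.23 to 0.25). Tbx2 and Tbx3, which are relatives, differed by 1.03, with Tbx2 at rank 1383 in the list of Tbx3 and Tbx3 at rank 6271 in that of Tbx2. The measure depends on each gene's own spread about its mean, which was 0.81 for Tbx2 and 1.08 for Tbx3.

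**Figure D4:**
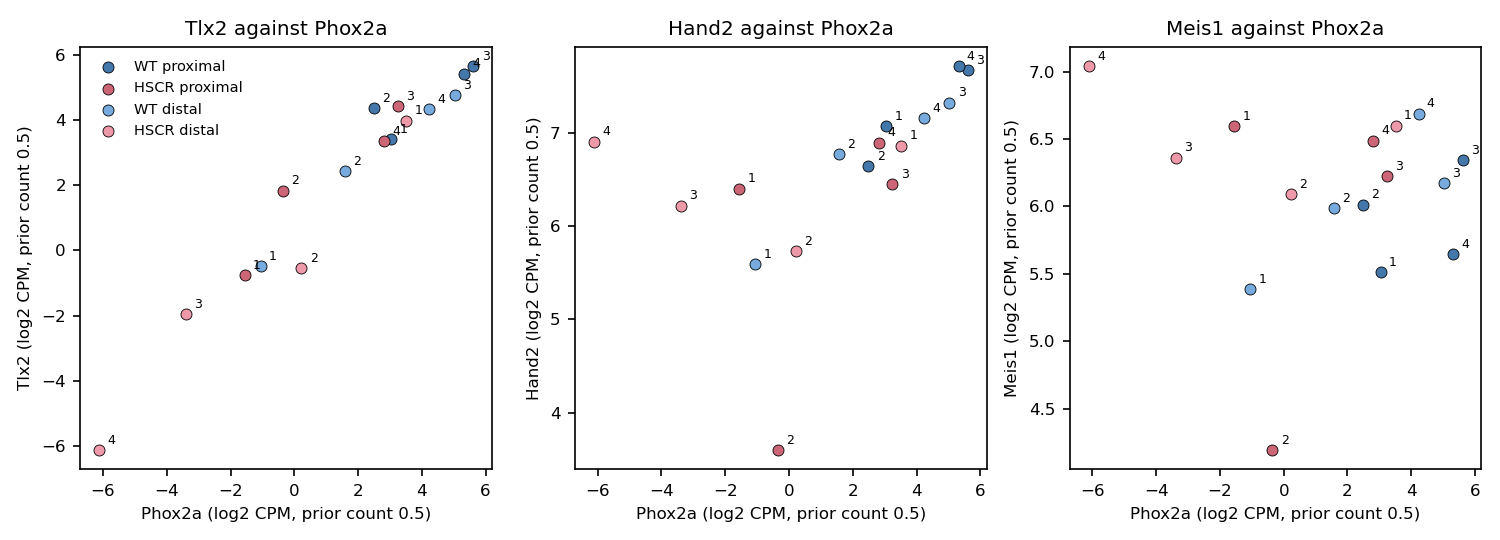
Log2 CPM (prior count 0.5) of Tlx2, Hand2 and Meis1 (vertical axes) against Phox2a (horizontal axes) in the 16 libraries, coloured by group and numbered. Tlx2 follows Phox2a through every group, Hand2 stays high in HSCR distal libraries 3 and 4, and Meis1 is highest in HSCR distal library 4, where Phox2a is at 0; the libraries share depth and makeup, and no test was made.

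The other transcription factors of the enteric nervous system were read from a list of 21 genes, of which 19 were tested. In proximal colon 15 had values below 0 and 4 above, with a median of -0.53 against 0.04 for all genes. By edgeR 0 passed the adjusted p and 5 had lower levels at an unadjusted p of 0.05, against 4.13% of all genes lower. Lower in HSCR mice without overlap were 4, against 2.83% of all genes: Sox10, Sox2, Zeb2 and Hoxb5. Without the library labelled HSCR proximal 1, 17 of 19 were below 0 (median -0.57), and these 4 and Sox8 were lower without overlap, against 4.12% of all genes.

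Sox10, which maintains progenitors and glia, was at 71.9 to 153 CPM in WT proximal and 10.9 to 49.3 CPM in HSCR proximal libraries (log2 fold change -1.83). Zeb2, the factor of Mowat-Wilson syndrome, was at -1.69, Sox2, of progenitors and glia, at -2.58, and Hoxb5, a Hox factor acting on Ret in neural crest, at -2.92.

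In distal colon 14 of 19 had values below 0 and 5 above, with a median of -0.29 against 0.04, 0 at the adjusted and 2 lower at the unadjusted edgeR p, against 1.76% of all genes. Ebf3, a relative of Ebf1, and Sox6 were lower in HSCR libraries without overlap, against 1.04% of all genes. Ebf3 was at 9.51 to 17.2 CPM in WT distal and 2.32 to 9.26 CPM in HSCR distal libraries (log2 fold change -1.29, SE 0.493). Sox6 was at 6.07 to 15.6 CPM in WT distal and 2.19 to 6.003 CPM in HSCR distal libraries (log2 fold change -1.06), and so barely separated. Hoxb5 had the lower unadjusted p of the 2 past that threshold, with a log2 fold change of -2.31 (SE 0.644, edgeR unadjusted p = 0.0059, adjusted p = 1.00), and was at 9.94, 23.3, 66.8 and 48.2 CPM in WT distal and 13.5, 4.20, 4.85 and 7.95 CPM in HSCR distal libraries. Without the library labelled HSCR distal 1, 13 of 19 were below 0 (median -0.37), 4 were lower at the unadjusted p (4.13%), and 4 were lower without overlap, against 3.28% of all genes: Ebf3, Sox6, Hoxb5 at -2.76 and Sox2 at -3.77. Without HSCR distal libraries 1 and 4, the same 4 and Meis3 were lower without overlap (5.65%), the median was -0.58 and 1 was lower at the unadjusted p (2.8%).

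**Figure D5:**
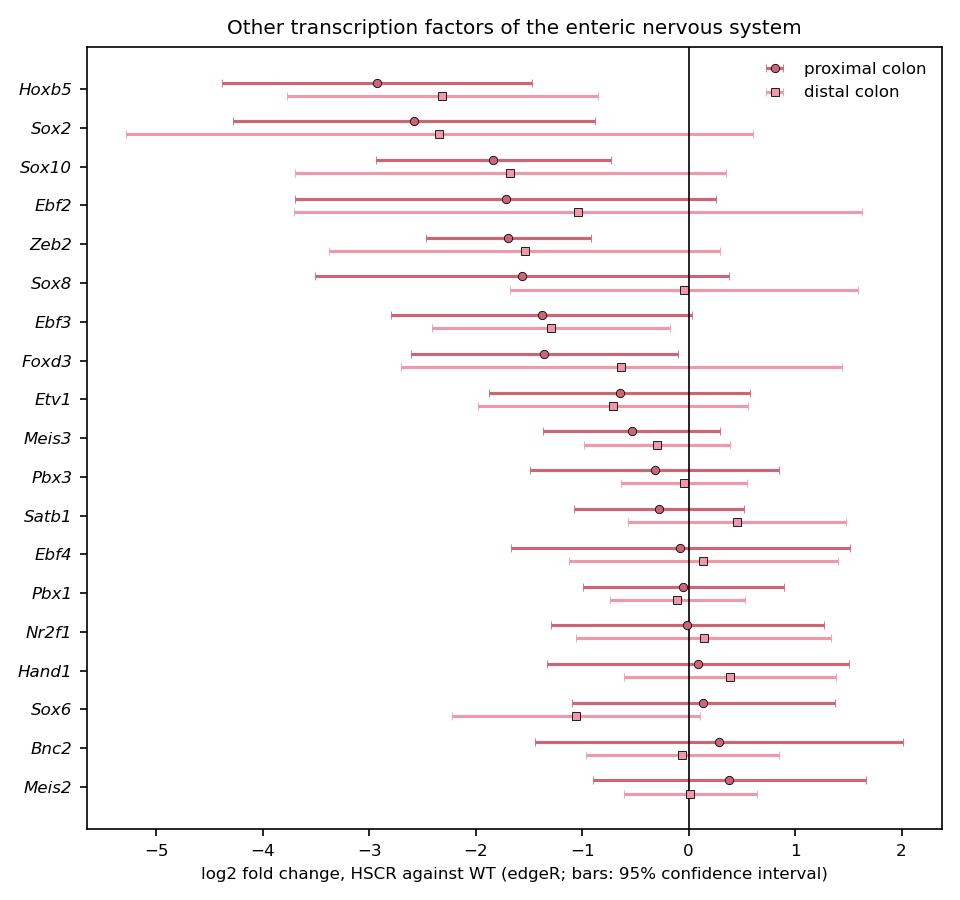
Fitted log2 fold change of HSCR against WT (horizontal axis, edgeR; bars are 95% confidence intervals) for 19 other transcription factors of the enteric nervous system in proximal (circles) and distal colon (squares), ordered by the proximal value. Hoxb5 and Sox2 are lowest in proximal colon, at -2.92 and -2.58, and Meis2 is highest.

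Relatives of the 8 genes were read from a list of 13 paralogues, of which 6 passed the filter in proximal and 8 in distal colon. In proximal colon 4 of 6 had values below 0, against 46.8% of all genes, and 0 were without overlap (4.86% of all genes). In distal colon 4 of 8 were below 0, against 46.1%, and Ebf3 alone, lower in HSCR mice, was without overlap (1.82%). Without the HSCR library numbered 1 of each segment, 5 of 6 and 4 of 8 were below 0. Lower without overlap were then 0 and again Ebf3 alone, against 4.12% and 3.28% of all genes. Without HSCR distal libraries 1 and 4, 6 of 9 were below 0, and Ebf3 and Meis3 were lower without overlap (5.65% of all genes). The medians of all genes in these 3 fits were 0.02, 0.03 and -0.05. Hand1, the relative of Hand2, was at 0.09 in proximal and 0.39 in distal colon on the log2 scale, and Meis2 at 0.38 and 0.02. Tbx5, a limb and heart T-box factor, was at 0 in all 4 WT proximal libraries and at 3.94, 3.40, 0.79 and 3.66 CPM in WT distal libraries. It was also at 0 in 3 HSCR proximal libraries but at 2.50 CPM in the library labelled HSCR proximal 1, and at 0 in the library labelled HSCR distal 1 and in HSCR distal library 4. In those 3 libraries Tbx5 was thus on the same side as Hoxd13.

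Reads of 6 of the 8 genes could be shared with annotated genes overlapping them on the other strand (1 for Phox2a, 3 for Hand2, including Hand2os1, 2 for Tbx3, 1 for Tbx2, 3 for Ebf1 and 3 for Meis1, which 3 further genes overlap on its own strand), since no source used here says that the counting used strand. None overlaps Tlx2 or Insm1 in the annotation used.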

How the data were processed

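RNA was extracted from homogenised LMMP of proximal and distal colon and sequenced as poly(A) libraries; the labels mention both strand-specific and non-specific kits without saying which was used. Per the submitters' processing notes, reads were aligned to mm39 with HISAT2 2.2.1 and counted per gene with featureCounts 2.0.6 on a GENCODE gene model. The deposited table holds raw counts per gene and the authors' FPKM for each of the 16 libraries. A further 20 columns hold the authors' own comparisons and were not used.

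The 8 genes and all gene lists were chosen with earlier results of these data known. The rule for naming other genes covered the paralogues and the 3 genes most like each of the 8. It also covered a listed transcription factor at an adjusted p under 0.05 or with non-overlapping groups, and Sox10 in any case. Not every paralogue is given with its values here. Hoxd13 was added after its values were seen. Some listed genes are not reported here, and the list counts leave them out.

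The deposited counts were filtered with filterByExpr, scaled by TMM and tested with edgeR 4.0.16 (glmQLFit, glmQLFTest; R 4.3.3, limma 3.58.1) within the groups compared, with Benjamini-Hochberg adjustment over all genes tested; the interaction used all 16 libraries. CPM used TMM library sizes over the 16 libraries, and log2 CPM a prior count of 0.5. The study's methods name edgeR with RUVr and the likelihood ratio test, run here as an alternative with 4 factors. DESeq2 1.42.0, upper-quartile scaling, no filter, removal of 37 mitochondrial genes, 1 fit over 16 libraries, the style of library names, replicate numbers as a block and leaving out libraries were the other alternatives. FPKM entered log2(FPKM + 0.1). The edgeR scripts were tested on simulated data. No pair of libraries held identical values.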

Additional observations from a re-analysis of the deposited data

Results flagged for a closer look

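Among the 32 sets of 4 libraries (8 genes in 4 groups), 3 held a highest library whose gap to the next, divided by the whole range of the set, passed Dixon's 95% critical value for 4 samples. Chance flags about 1 in 20 sets if values are normally distributed and sets independent, which was not tested for these CPM values. Both Phox2a and Tlx2 stood out in the library labelled HSCR distal 1: Phox2a was at 11.4 CPM there against 1.15 CPM in the next HSCR distal library, and Tlx2 at 15.7 CPM against 0.669 CPM. That library also held Ednrb at 97.0 CPM, Hoxd13 at 0.629 CPM and the 16 neuronal markers at 1646 CPM in sum, against 32.8 to 158 CPM in the other 3 of its group; a mix-up of labels was not tested. Tbx2 stood out in HSCR proximal library 2, at 25.6 CPM against 6.62 CPM in the next library of the group. In that library the epithelial markers summed to 17624 CPM and the smooth muscle markers to 4690 CPM, and their part in the Tbx2 level was not tested.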

How the results depend on the processing

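Of 934 values recomputed under the alternatives, 878 were the same, 33 turned sign, 6 became calls and 17 counts moved by over 1.5 times or from 0. A fold change was the same if it kept its sign and its side of the adjusted threshold. A count of called genes was the same within 1.5 times, which 0 against 0 also meets. A single-gene permutation result was the same if it kept its sign and its side of an exact p of 0.05. All 6 new calls came from RUVr with the edgeR likelihood ratio test, which called 4 of the 8 genes and 3455 genes in all in proximal colon and 2 of the 8 and 1453 genes in distal colon. DESeq2 called 0 of the 8 in any comparison, although it gave no p-value for Tbx2 between HSCR segments. It called 190 genes in proximal colon, 22 in distal colon, 49 between WT segments, 5 between HSCR segments and 6 in the interaction. The counts by edgeR's quasi-likelihood test were 0, 0, 3, 0 and 0, and the cause of the difference was not tested. With a term for libraries 1 and 2 against 3 and 4, 4 genes were called in proximal colon, none of the 8, and with the 3 name styles as terms 0. Whether replicate numbers pair the libraries could not be settled, and the main fits did not pair them. In each of the 4 comparisons at least 1 pair of same-numbered libraries correlated at 0.1 or less (lowest -0.21). Between segments, however, all 4 same-numbered pairs correlated above 0 in each genotype. The range was 0.096 to 0.417 in WT and 0.0001 to 0.358 in HSCR mice, where the lowest pair was the doubted libraries numbered 1. Differently numbered pairs between segments reached 0.408 in WT and 0.271 in HSCR mice. With the replicate block 1 gene was called between WT segments and the interaction value of Insm1 was 0.0473.

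Leaving out single libraries gave 0 to 2 calls between WT segments and 0 of the 8 genes in every comparison. Signs that turned were, in proximal colon, Insm1 (-0.607 to 0.0767) and, in distal colon, Ebf1 (-0.49 to 0.26); between WT segments, Ebf1 (-0.22 to 0.76) and Meis1 (-0.0107 to 0.424); between HSCR segments, Phox2a (-3.45 to 0.22), Hand2 (-0.13 to 0.53) and Tbx2 (-0.74 to 0.46); and in the interaction, Phox2a (-2.58 to 1.31), Tbx2 (-0.32 to 0.92), Tlx2 (-3.72 to 0.97) and Meis1 (-0.10 to 0.42). Other turns were Meis1 in proximal colon without the WT and the HSCR library numbered 1, chosen after seeing the data (-0.0547), Ebf1 in distal colon with a term for libraries 1 and 2 against 3 and 4 (0.0146), and the interaction of Phox2a (-2.97) and Tlx2 (-4.11) without both HSCR libraries numbered 1. With HSCR distal library 4 left out as well, chosen after seeing the data, Hand2 turned between HSCR segments (-0.25), as did the interactions of Phox2a (-2.37), Tlx2 (-3.50) and Ebf1 (-0.13). CPM of Phox2a ranged 8.73-fold within WT proximal and 69.9-fold within WT distal libraries; the part of this spread in the calls was not tested.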
